A study of Mus musculus with 39 samples.

Results

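The region examined here lies on mouse chromosome 11 at 32328174 to 32600000 (mm9), downstream of the α-globin locus. It covers 271.8 kb beyond Sh3pxd2b, from the intergenic stretch before Ubtd2 to a point inside Fbxw11. Its members are the DpnII restriction fragments whose midpoints lie between these coordinates. They were chosen by position and not by any measured value. The digest of mm9 gave 589 such fragments out of 295448 on the chromosome. At least 1 read was seen on 565 of them in at least 1 library. The 24 fragments without a read had a median length of 10.5 bp and a longest of 67 bp. The median fragment of the block was 317 bp long, against 270 bp over the chromosome, and the GC content was 45.3% against 43.8%.

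Next-generation Capture-C (NG Capture-C) joins DNA ends that lie close together in crosslinked nuclei and enriches the ligation products of chosen restriction fragments, called viewpoints. Each file gives, for every fragment, its interactions with a viewpoint. Mouse embryonic stem cells (mES) were of the E14 line (129/Ola), a single established line in which α-globin is silent. All other samples were erythroblasts cultured ex vivo from mouse foetal livers (MFL) taken at E12.5. These cells were labelled C57Bl6, while the study's methods give a mixed background. After expansion they were depleted of Ter119-positive cells, sorted on CD44 and size, and sampled at 0 h or after 30 h in differentiation medium. Wild-type MFL at 0 h and 30 h were captured from the Hba1 and Hba2 promoters and the CTCF site HS39.5. Wild-type MFL at 30 h and mES cells were captured from the enhancers R1 and R2, and in other libraries from 5 fragments of the FISH probe regions, Ex, E, A, C and Cx. Foetal liver cells with both R1 and R2 deleted (DKO) and their wild-type controls (WT), all at 30 h, were captured from Hba1/2 and the CTCF sites HS39.5, +44 and +48. Each of these 8 groups had 3 biological replicates. Single libraries came from WT cells and from cells lacking a 16 kb piece with Hba1 and Hba2 (AMKO), both captured from R1/R2 at 30 h. A further single library each came from WT cells at 30 h left untreated, treated with DMSO for 3 h or treated with the transcription inhibitor DRB for 3 h, captured from Hba1/2 and Fbxw11. For the MFL libraries captured from R1/R2 the sample description and the study give 30 h, whereas a second label reads 0 hours. They are treated here as 30 h.

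The α-globin genes of the mouse sit in a cluster whose major enhancers, R1 and R2, lie upstream, within introns of Nprl3. In erythroid cells the enhancers and the genes contact each other within a self-interacting domain flanked by CTCF sites, and CTCF together with cohesin is known to limit how far such contacts spread. Chromatin beyond a domain is still contacted, at a rate that falls with distance. The block holds 4 protein-coding genes outside the cluster. Ubtd2 encodes a ubiquitin-domain protein and lies on the + strand at 32355370 to 32416687. Efcab9 encodes an EF-hand calcium-binding protein known from sperm and lies on the - strand at 32422751 to 32432081. Stk10 encodes a serine/threonine kinase that acts on cytoskeletal linker proteins and lies on the + strand at 32433305 to 32524587. Fbxw11 encodes an F-box protein that selects substrates for a ubiquitin ligase, and its first 57.3 kb, from 32542724, fall in the block.

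The viewpoints see the block from different distances. Its start lies 48.2 kb from Cx and 73.5 kb from C, both in introns of Sh3pxd2b. It lies 102 kb from CTCF +48, 107 kb from CTCF +44, 123 kb from A, 132 kb from Hba2 and 145 kb from Hba1. The viewpoints farthest away are R2 at 177 kb, E at 178 kb, R1 at 182 kb, CTCF HS39.5 at 191 kb and Ex at 196 kb. The far end of the block is 320 kb from Cx and 468 kb from Ex. A difference between viewpoints therefore includes a difference in distance, and every comparison below is made within a viewpoint.

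The sequences just upstream of the 4 gene starts are shown because of a bin that holds 2 of these starts. In replicated groups of erythroblasts at 30 h this bin had the highest mean from R1/R2, E and Hba1/2. It was not the highest from the other viewpoints or at 0 h. Each sequence is the 300 bases of mm9 before the annotated start, 5′ to 3′ on the strand of the gene. Capitals would mark a GATC, the DpnII site, and none of the 4 windows has one.
Ubtd2, chr11:32355070-32355369, + strand: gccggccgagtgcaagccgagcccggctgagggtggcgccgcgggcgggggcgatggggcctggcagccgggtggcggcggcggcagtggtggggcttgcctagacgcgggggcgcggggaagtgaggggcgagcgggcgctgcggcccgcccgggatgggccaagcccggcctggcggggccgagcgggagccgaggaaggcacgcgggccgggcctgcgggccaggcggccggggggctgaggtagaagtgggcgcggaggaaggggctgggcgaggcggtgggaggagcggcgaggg
Efcab9, chr11:32432082-32432381, - strand: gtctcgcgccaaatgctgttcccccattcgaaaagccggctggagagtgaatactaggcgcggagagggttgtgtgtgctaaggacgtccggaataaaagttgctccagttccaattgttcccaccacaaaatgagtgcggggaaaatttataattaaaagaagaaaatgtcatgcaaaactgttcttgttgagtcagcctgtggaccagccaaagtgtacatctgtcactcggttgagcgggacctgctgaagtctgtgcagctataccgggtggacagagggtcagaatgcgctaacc
Stk10, chr11:32433005-32433304, + strand: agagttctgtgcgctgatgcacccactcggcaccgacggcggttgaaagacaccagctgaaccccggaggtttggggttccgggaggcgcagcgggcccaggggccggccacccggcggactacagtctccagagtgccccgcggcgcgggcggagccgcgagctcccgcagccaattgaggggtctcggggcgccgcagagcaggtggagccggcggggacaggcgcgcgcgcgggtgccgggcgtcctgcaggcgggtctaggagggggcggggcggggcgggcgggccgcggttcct
Fbxw11, chr11:32542424-32542723, + strand: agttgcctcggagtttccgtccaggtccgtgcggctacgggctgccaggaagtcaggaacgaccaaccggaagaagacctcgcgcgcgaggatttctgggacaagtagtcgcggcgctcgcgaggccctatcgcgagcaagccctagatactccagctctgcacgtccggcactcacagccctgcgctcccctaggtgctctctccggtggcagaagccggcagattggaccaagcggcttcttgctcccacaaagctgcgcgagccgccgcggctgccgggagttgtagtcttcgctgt

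The GC content was 81.3% for Ubtd2, 49.7% for Efcab9, 75.7% for Stk10 and 64.3% for Fbxw11, against a median of 54.7% over 1653 upstream windows of protein-coding genes on the chromosome. CpG dinucleotides numbered 40, 13, 39 and 31 in the same order, against a median of 11. The windows were searched on both strands for AGATAA (the GATA core), CACCC (a KLF-type box) and AGGGGGC (part of the CTCF consensus), which do not overlap one another. AGATAA was in none of the 4 and in 11.3% of all windows. CACCC occurred 2 times in the window of Ubtd2, 1 time in that of Efcab9 and 3 times in that of Stk10, and 61.4% of all windows hold it. AGGGGGC occurred 1 time, in the window of Stk10, and in 11.5% of all windows. The starts of Efcab9 and Stk10 lie 1.22 kb apart on a single DpnII fragment of 1528 bp (chr11:32431988-32433515), so the assay cannot tell the starts of these neighbours apart.

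Values are the interactions of a fragment per 100000 interactions on chromosome 11 of the same viewpoint and library, without fragments within 1 kb of any captured viewpoint. A share is therefore part of a fixed total, and a lower share does not by itself show fewer contacts per cell. Different viewpoints of the same libraries are not independent of each other. With 3 replicates against 3, the exact permutation test has 20 arrangements and cannot give a p below 0.1. Reads behind a viewpoint's value in the block ranged from 10 in a run of MFL 30 h libraries to 20851 in a run of mES libraries. The share of reporter reads on chromosome 11 ranged from 75.4% to 88.1% in mES libraries and from 49.8% to 79.9% in the replicated MFL libraries.

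The first question was whether the block is contacted differently where α-globin is silent and where it is active. In MFL cells the block received a smaller share of interactions than in mES cells from all 6 viewpoints compared. From R1/R2 the shares were 2.95%, 2.58% and 2.66% in the 3 MFL replicates and 6.21%, 6.04% and 6.26% in mES. All MFL values thus lay below the mES values, with means of 2.73% ± 0.197 and 6.17% ± 0.117 (SD, n = 3), a log2 difference of -1.18. From E, which lies 435 bp from R2 within Nprl3 but was captured in other libraries, the shares were 1.57%, 1.66% and 1.63% in MFL and 6.06%, 6.13% and 6.35% in mES. The difference from E was the largest of the 6, with a log2 value of -1.93.

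The viewpoint A, between the α-globin genes and the +44 site, gave 3.87%, 3.98% and 4.21% in MFL against 7.75%, 7.37% and 7.91% in mES (log2 difference -0.93). From Ex, near the upstream boundary, the values were 2.93%, 3.30% and 3.75% in MFL and 5.31%, 5.98% and 5.96% in mES (log2 difference -0.79). C and Cx lie nearest to the block and saw it most often in both cell types. The shares from C were 7.32%, 8.05% and 8.26% in MFL and 12.9%, 12.9% and 13.9% in mES (log2 difference -0.75). Cx gave 8.31%, 7.59% and 8.60% in MFL and 13.5%, 13.5% and 13.8% in mES (log2 difference -0.73). In none of the 6 did the groups overlap, and each gave the smallest p that the exact permutation test allows (p = 0.1, two-sided, adjusted p = 0.1 over 11 comparisons). The files hold no expression values, so cell type markers could not be checked. Cell type and strain cannot be told apart in this comparison. The plot of shares by replicate shows these values beside those of the other comparisons.

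**Figure D1:**
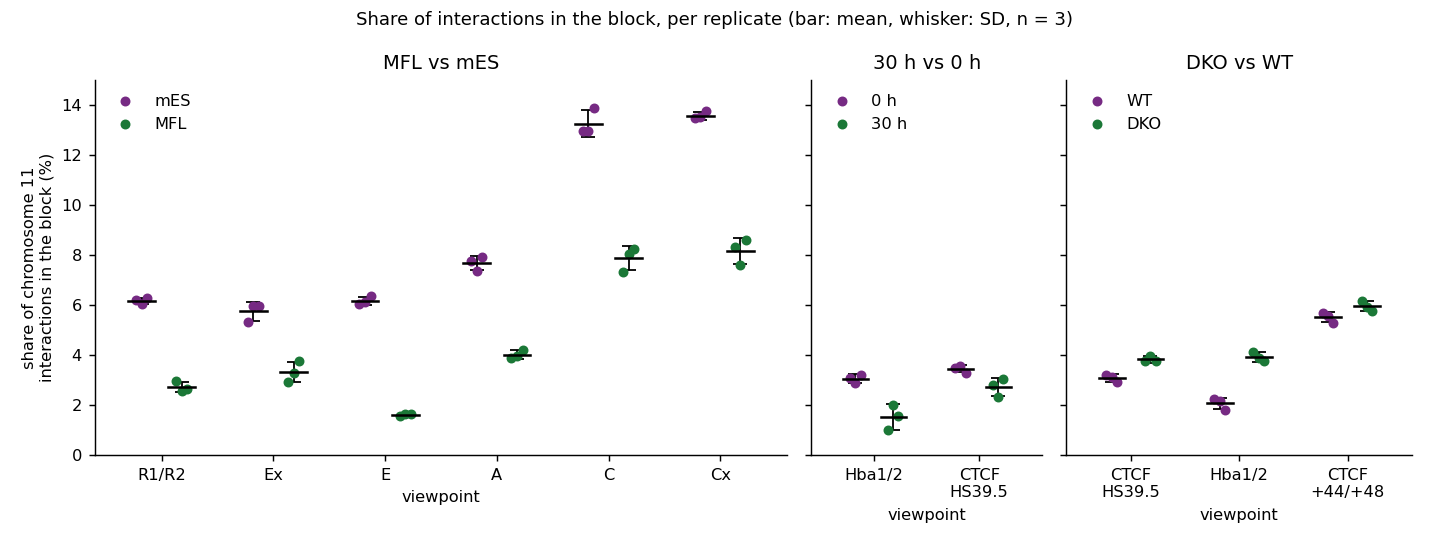
Share of chromosome 11 interactions in the block (%, vertical axis) for each viewpoint, with 1 point per replicate, a bar at the mean and a whisker of 1 SD (n = 3 per group). mES lies above MFL at all 6 viewpoints, 0 h above 30 h at both viewpoints and DKO above WT at all 3, by amounts that range from a log2 difference of 0.11 at CTCF +44/+48 to -1.93 at E.

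The lower share was spread over the block. Of its 27 bins of 10 kb, 27 had a negative log2 difference from each of the 6 viewpoints. limma, fitted over all bins of the chromosome with a mean of at least 10, called 21 of the 27 lower in MFL from R1/R2, where 25.1% of all bins were called in either direction. It called 27 lower from E (45.5% of all bins called), 24 from Cx (24.6%), 23 from C (17.7%), 12 from A (10.6%) and 7 from Ex (7.65%). Lower bins alone over the chromosome were 114 of 716 from R1/R2, 182 of 512 from E and 121 of 969 from Cx. From C they were 92 of 922, from A 66 of 755 and from Ex 51 of 758. No bin of the block was called higher from any of these viewpoints. The median log2 difference of the block was -1.32 from R1/R2, against -0.14 over all tested bins, and -2.09 against -1.30 from E. From C and Cx the medians were -0.78 against 0.56 and -0.80 against 0.64, and from A and Ex -0.92 against -0.03 and -0.81 against -0.01. The median over the chromosome depended on the setting, while that of the block stayed negative. In 2 kb bins the block and the chromosome had -1.68 and -1.21 from R1/R2, -2.37 and -2.07 from E, -1.21 and -0.93 from A, and -1.04 and -0.67 from Ex. In these bins the chromosome was also negative from C (-0.80 in the block against -0.50) and from Cx (-0.81 against -0.58). With the values as deposited it was -0.16 from C and -0.09 from Cx.

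The bin with the smallest adjusted p overlapped Stk10 for 3 viewpoints. From R1/R2 it was the bin at 32488174 to 32498173, with 55.9 ± 1.79 interactions in MFL and 299 ± 21.5 in mES (log2 difference -2.40, SE 0.17, adjusted p = 0.000153 from limma). From A it was at 32518174 to 32528173, with 78.0 ± 31.1 against 348 ± 18.9 (log2 difference -2.23, SE 0.36, adjusted p = 0.000104 from limma). From Ex it was at 32498174 to 32508173, with 44.5 ± 14.997 against 181 ± 28.1 (log2 difference -2.05, SE 0.40, adjusted p = 0.000985 from limma). From E it was an intronic bin of Ubtd2 at 32368174 to 32378173, with 57.5 ± 11.2 against 332 ± 34.8 (log2 difference -2.53, SE 0.26, adjusted p = 1.14e-06 from limma). For C and Cx it was the same intergenic bin, at 32338174 to 32348173, before Ubtd2. From C this bin fell from 1382 ± 109 in mES to 750 ± 82.8 in MFL, and from Cx from 1541 ± 56.4 to 883 ± 80.4 (adjusted p = 4.37e-06 and 3.65e-07 from limma).

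That intergenic bin, was also the highest of the 27 in mES cells from R1/R2 (433 ± 40.5), E (457 ± 4.85) and A (629 ± 107). It ranked first in every mES replicate from these 3 viewpoints. It was likewise first in every replicate from C and Cx in both cell types. Across the 27 bins, Pearson's r between R1/R2 and E in mES, from separate libraries, was 0.96 (Spearman's rho 0.96). Neighbouring bins share distance and base composition, and these correlations are descriptions. In MFL cells r between R1/R2 and E was 0.72, and between MFL and mES from R1/R2 it was 0.41.

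**Figure D2:**
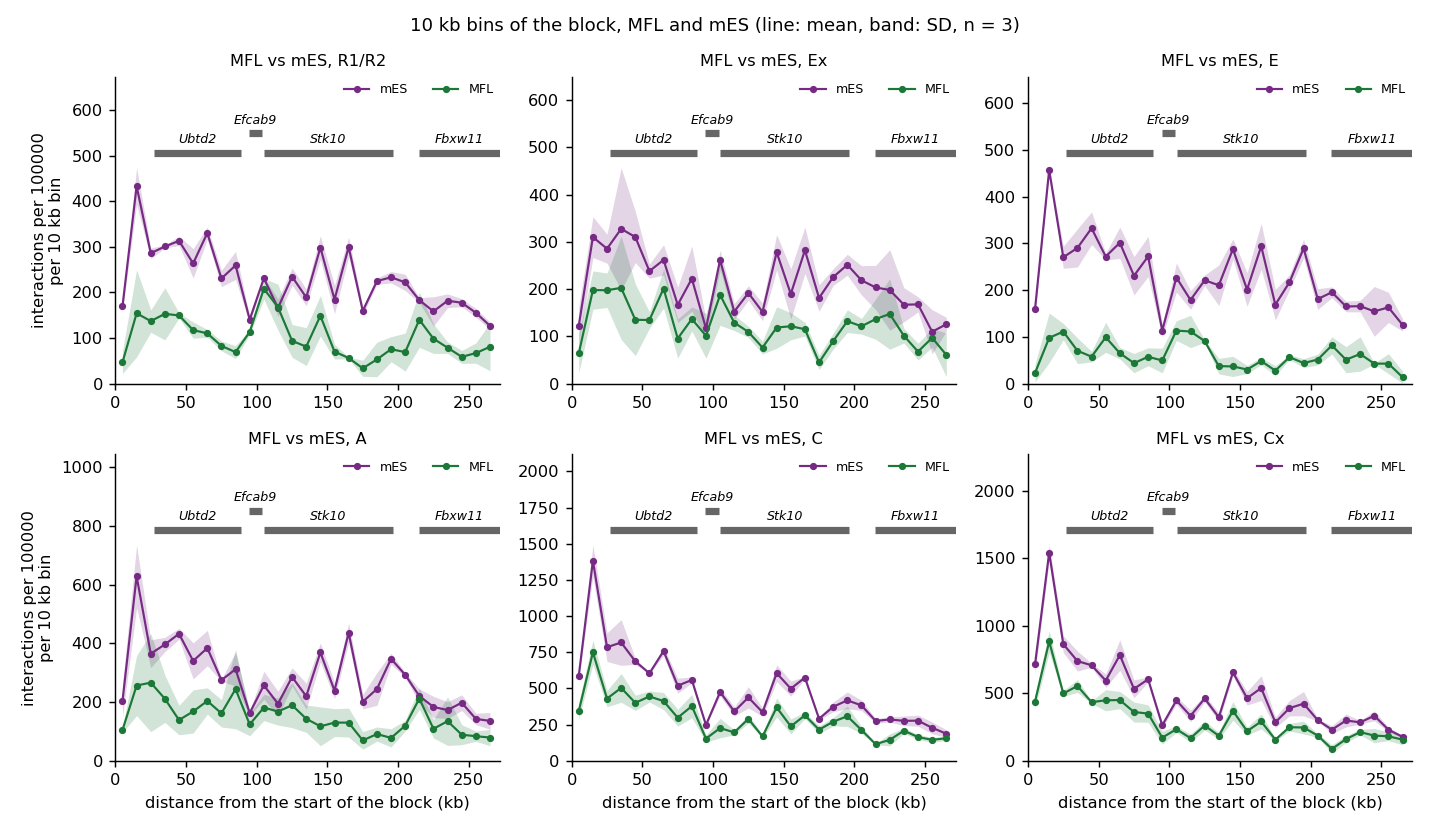
Interactions per 100000 in each 10 kb bin (vertical axis) against the distance from the start of the block (kb), for 6 viewpoints in MFL and mES, with lines at the means, bands of 1 SD (n = 3) and grey bars for the genes. The mES line peaks in the second bin from R1/R2, E, A, C and Cx. The MFL line from R1/R2 reaches 208 at the bin with the starts of Efcab9 and Stk10, where mES had 231.

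Over whole genes, values were compared per kb. From R1/R2, Ubtd2 had 11.7 ± 1.60 interactions per kb in MFL and 28.4 ± 1.11 in mES. Stk10 had 9.42 ± 0.643 and 22.4 ± 0.668, and the part of Fbxw11 in the block 7.76 ± 0.960 and 15.5 ± 0.859. Efcab9, the shortest gene, had 17.8 ± 1.06 in MFL and 19.5 ± 2.07 in mES, and its ranges overlapped. From Ex its ranges overlapped too, with 15.6 ± 8.11 and 19.9 ± 0.403 per kb. From E it had 7.82 ± 3.11 against 18.03 ± 2.13, and from C 20.04 ± 2.36 against 37.7 ± 0.573, without overlap. Among the 4 genes from 6 viewpoints, the ranges overlapped only for Efcab9 from R1/R2 and Ex, and every mean was lower in MFL. The viewpoints look at the same genes and partly share libraries. Other genes of the chromosome were not compared in this way. Within mES cells the level per kb from R1/R2 fell from Ubtd2 over Stk10 to Fbxw11, in the order of their distance, with Efcab9 below Stk10.

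The bin at 32428174 to 32438173, which holds the starts of Efcab9 and Stk10, was singled out after its values were seen. From R1/R2 it had 225, 182 and 216 interactions in the MFL replicates and 234, 229 and 230 in mES. Its MFL range thus lay just below the mES range, in a block whose other values were mostly well apart. The log2 difference was -0.16 (SE 0.15, adjusted p = 0.473 from limma), the second highest of the 27 bins, against the block's median of -1.32. It was the highest of the 27 bins in MFL from R1/R2, and first or second in each replicate, while in mES it ranked 12 by its mean. As a part of the block it took 7.60% ± 0.544 in MFL and 3.74% ± 0.0636 in mES (n = 3).

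From E the same bin again had the highest mean in MFL, though it ranked 2 to 5 in the single replicates, with 108, 136 and 95.2 interactions, against 206, 263 and 212 in mES. Here it was lower in MFL (log2 difference -1.004, SE 0.24, adjusted p = 0.00286 from limma), though by less than the block's median of -2.09. It held 6.97% ± 1.18 of the block in MFL and 3.68% ± 0.530 in mES. From A and Ex the bin did not pass, with log2 differences of -0.51 (adjusted p = 0.257) and -0.54 (adjusted p = 0.217) from limma. From C and Cx it was lower in MFL. There its log2 differences were -1.11 and -0.94 (adjusted p = 0.000175 and 8.37e-05 from limma), and it ranked 16 and 15 of 27 in MFL. No test compared the bin's difference between viewpoints.

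The 1528-bp fragment with both starts held only a small part of this bin. From R1/R2 it had 23.1 ± 9.94 interactions in MFL, on 10 reads, beside a mean of 208 for the whole bin. In mES it had 16.2 ± 1.86, on 29 reads, beside 231. Most of the bin's value thus lay on its other fragments. Per kb the fragment had 15.1 against 10.0 for the whole block in MFL, and 10.6 against 22.7 in mES. The fragment with the highest mean of the block in MFL from R1/R2 was another of the same bin, in an intron of Efcab9 (chr11:32428812-32429518), with 30.2 ± 11.9 in MFL on 10 reads and 14.7 ± 5.39 in mES. Differences on single fragments were not tested.

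**Figure D3:**
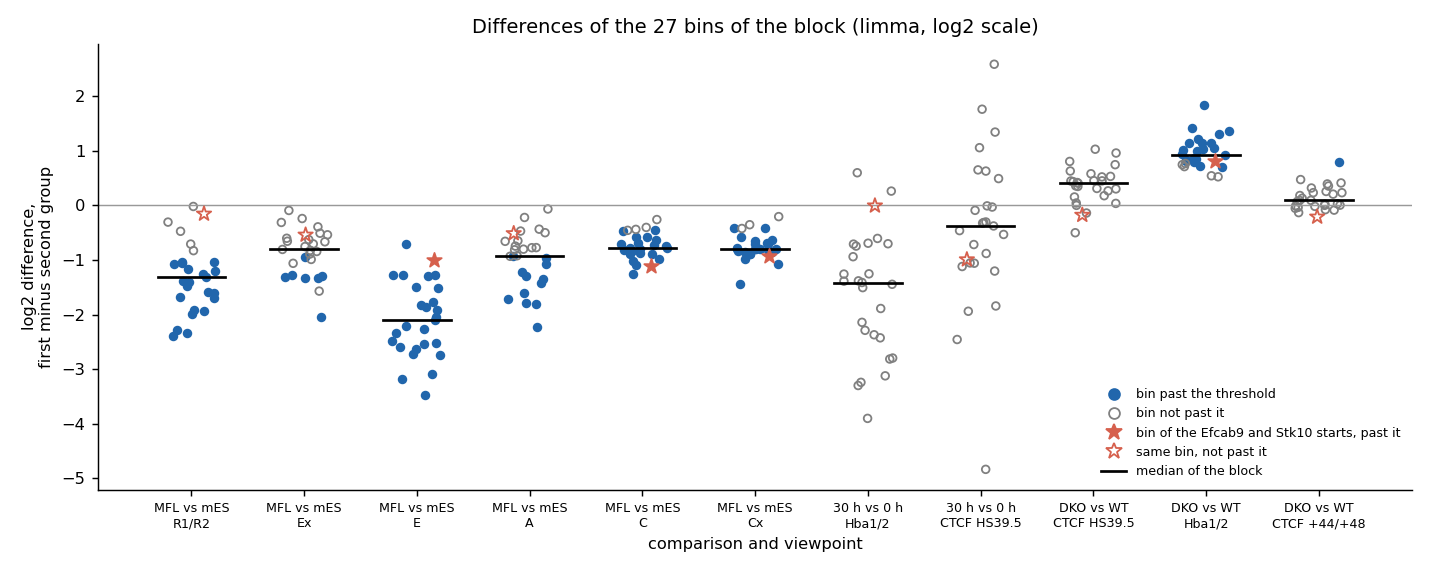
log2 difference between the groups (vertical axis, first minus second group, from limma) of the 27 bins of the block for the 11 comparisons, with filled points for bins past the adjusted threshold of 0.05, a bar at the median and a star for the bin with the starts of Efcab9 and Stk10. The star lies well above the median from R1/R2, E and, at 30 h against 0 h, Hba1/2, and below it in the other comparisons except from A and Ex.

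The fragment with the highest mean in mES cells from E, A and C was one and the same, in an intron of Stk10. It is printed with the DpnII sites at both ends in capitals, because its letters repeat.
Stk10 intron, chr11:32479450-32479715, + strand: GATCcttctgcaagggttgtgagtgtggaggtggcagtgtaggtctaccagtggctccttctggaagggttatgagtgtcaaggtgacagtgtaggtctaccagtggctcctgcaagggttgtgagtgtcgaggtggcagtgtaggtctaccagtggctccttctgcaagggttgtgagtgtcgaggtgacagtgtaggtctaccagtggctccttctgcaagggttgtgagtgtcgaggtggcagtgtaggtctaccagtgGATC
Of its 247 stretches of 20 bases, 152 were distinct, and the most frequent one occurred 5 times at distances of 50 to 53 bp. The fragment thus holds tandem copies of a short unit. Its mean in mES was 44.4 ± 22.5 from E, 50.4 ± 20.8 from A and 112 ± 63.5 from C, against 2.24 ± 3.89, 5.18 ± 8.97 and 32.6 ± 19.1 in MFL. The lowest and highest mES replicates differed widely, at 48.5 and 175 from C. How well reads map uniquely to such a repeat was not tested.

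Other leading fragments were as uneven. In MFL from A, a fragment in an intron of Ubtd2 (chr11:32410048-32410298) had 73.4 ± 109, with reads in 2 of 3 replicates. In MFL from Cx, another fragment of that gene (chr11:32386366-32386616) ranged from 43.98 to 180. From E the leading MFL fragment, in an intron of Stk10 (chr11:32438378-32438627), had 24.7 ± 33.7. Steadier values came from Cx in mES, with 96.7 ± 12.9 on an intergenic fragment (chr11:32330138-32331776), and from C in MFL, with 54.9 ± 8.42 on another one (chr11:32329072-32329439). The remaining leaders of this comparison were the intronic Ubtd2 fragments chr11:32380174-32381829 (25.7 ± 15.6 from R1/R2) and chr11:32371721-32372473 (31.1 ± 29.9 from Ex) in mES, and an intergenic one in MFL from Ex (chr11:32351028-32351461, 40.9 ± 6.85). Single fragments thus varied widely between replicates, and bins rather than fragments were compared.

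A window of the same size at the same distances on the other side of each viewpoint served as a reference for distance. From R1/R2 the block had 10.0 ± 0.724 interactions per kb in MFL and the mirrored window 11.9 ± 0.899, while in mES the block had 22.7 ± 0.430 and the mirrored window 18.1 ± 0.122. The block was therefore the higher side in mES (log2 ratio 0.33 ± 0.0258) and the lower side in MFL (-0.24 ± 0.0454), in all 3 replicates of each. The ratio switched sides in the same way from E (0.35 to -0.67) and from C (0.51 to -0.42). The mirrored window of C holds R1 and R2 but ends before Hba1, and that of Cx holds R1, R2, Hba1, Hba2 and the CTCF sites +44 and +48. From Cx the ratio was 0.45 in mES and 0.01 in MFL, and from A -0.18 and -0.45. In these 5 the groups did not overlap (exact permutation p = 0.1, adjusted p = 0.137). From Ex the ratio was 0.17 ± 0.116 in MFL and 0.41 ± 0.124 in mES, with overlapping ranges (exact permutation p = 0.2, adjusted p = 0.244). The mirrored window itself was lower in MFL from 5 of the 6 viewpoints, at 11.9 against 18.1 per kb from R1/R2, 10.8 against 15.9 from Ex, 9.54 against 17.8 from E, 20.2 against 32.1 from A and 29.8 against 36.7 from Cx. From C it was 38.8 in MFL and 34.3 in mES.

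**Figure D4:**
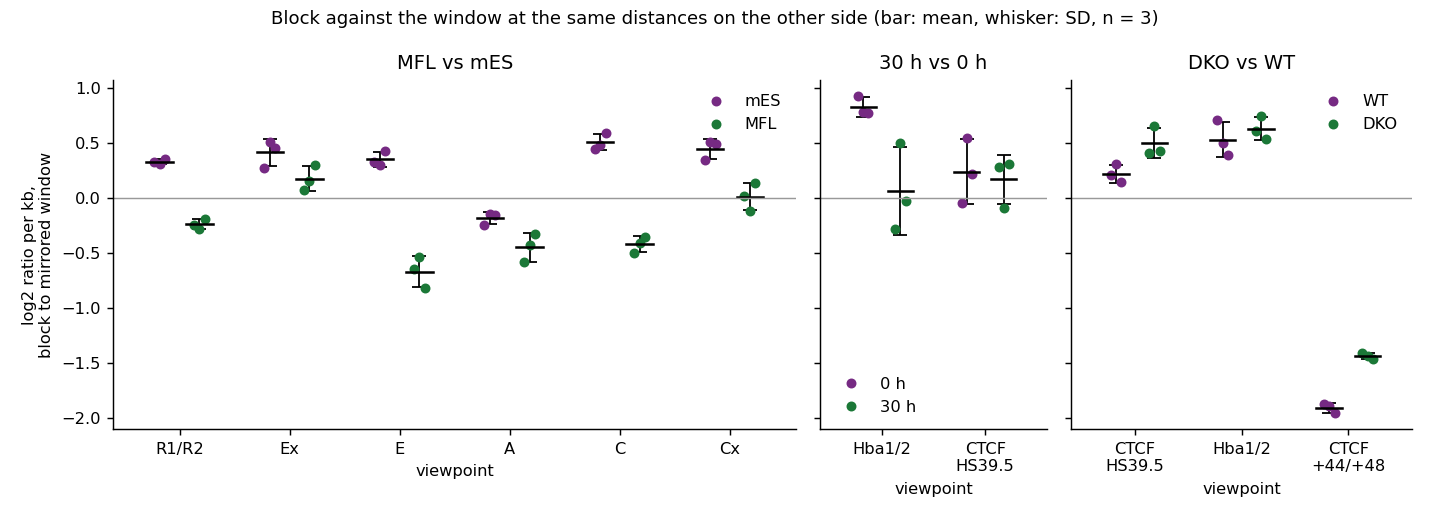
log2 ratio per kb of the block to the window at the same distances on the other side of the viewpoint (vertical axis), 1 point per replicate, with the mean and 1 SD (n = 3). From R1/R2, E and C the ratio is above 0 in mES and below 0 in MFL. From CTCF +44/+48 it is -1.91 in WT and -1.44 in DKO.

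The second question was whether the block changes between early erythroblasts and cells at peak α-globin transcription. From Hba1/2 its share was 3.08%, 2.88% and 3.22% at 0 h and 0.998%, 2.01% and 1.57% at 30 h. All 30 h values lay below all 0 h values, with means of 3.06% ± 0.174 and 1.52% ± 0.507 (SD, n = 3, log2 difference -1.06). From CTCF HS39.5 the shares were 3.497%, 3.56% and 3.29% at 0 h and 2.80%, 2.32% and 3.03% at 30 h, again apart but by less (log2 difference -0.35). Both gave p = 0.1 in the exact permutation test, adjusted p = 0.1. From CTCF HS39.5 the first run of the 0 h libraries had 4.72 to 4.94 reads per occupied fragment and the second 1.27 to 1.33. In the first run alone the ranges of 0 h and 30 h overlapped (log2 difference -0.21), and in the second alone they did not (-0.49). The part of read repetition in this difference was not tested.

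No single bin of the block passed. limma called 0 of the 27 from Hba1/2, where 0.394% of all bins were called, and 9 were lower at an unadjusted p under 0.05. With edgeR's quasi-likelihood test on the recovered reads the count was also 0, with 5 lower at an unadjusted p under 0.05. From CTCF HS39.5 limma called 0 as well (0.0938% of all bins called), with 3 lower at an unadjusted p under 0.05, and edgeR called 0, with 1 lower. The shares of all bins are at the adjusted threshold. Before adjustment the bins of the chromosome were not counted, so the unadjusted counts have no reference. From Hba1/2 25 of the 27 bins had a negative log2 difference, with a median of -1.41 against -0.63 over all tested bins. From CTCF HS39.5 it was 20 of 27, with a median of -0.38 against -0.21. Among the bins the highest mean over both groups from Hba1/2 was again the intergenic one at 32338174 to 32348173. It had 199 ± 15.2 interactions at 0 h and 131 ± 9.04 at 30 h, without overlap (adjusted p = 0.832 from limma). From CTCF HS39.5 it was an intronic bin of Ubtd2 at 32358174 to 32368173, with 281 ± 6.13 and 187 ± 85.8 (adjusted p = 0.824 from limma).

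By gene, Ubtd2 had 12.5 ± 0.498 interactions per kb from Hba1/2 at 0 h and 5.45 ± 2.21 at 30 h, Stk10 had 10.9 ± 1.01 and 5.94 ± 2.92, and Fbxw11 had 9.71 ± 2.94 and 4.02 ± 2.51. None of these 3 genes overlapped between the time points, while Efcab9 did (13.9 ± 5.96 and 5.74 ± 3.27). Genes outside the block were not compared in this way. From CTCF HS39.5 the values at 0 h and 30 h were 19.1 ± 2.65 and 11.9 ± 3.19 per kb on Ubtd2 and 20.7 ± 4.12 and 6.70 ± 1.33 on Efcab9, without overlap. Stk10 (10.8 ± 3.15 and 10.2 ± 1.34) and Fbxw11 (8.40 ± 3.47 and 8.70 ± 2.34) overlapped there, as did the stretch before Ubtd2 (14.7 ± 3.20 and 10.8 ± 1.52). The bin with the starts of Efcab9 and Stk10 was the highest from Hba1/2 at 30 h, but on 57.2, 244 and 109 interactions, against 61.4, 163 and 155 at 0 h. Its log2 difference was -0.01 (SE 0.72, adjusted p = 0.996 from limma), with a spread too wide to read. Compared with the mirrored window, the block was lower at 30 h from Hba1/2, with a log2 ratio of 0.83 ± 0.0884 at 0 h and 0.06 ± 0.4005 at 30 h (exact permutation p = 0.1, adjusted p = 0.137). The mirrored window itself had 6.35 ± 0.534 per kb at 0 h and 5.19 ± 0.700 at 30 h. From CTCF HS39.5 the ratio was 0.24 ± 0.295 and 0.17 ± 0.225, and the ranges overlapped (exact permutation p = 0.9, adjusted p = 0.9).

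**Figure D5:**
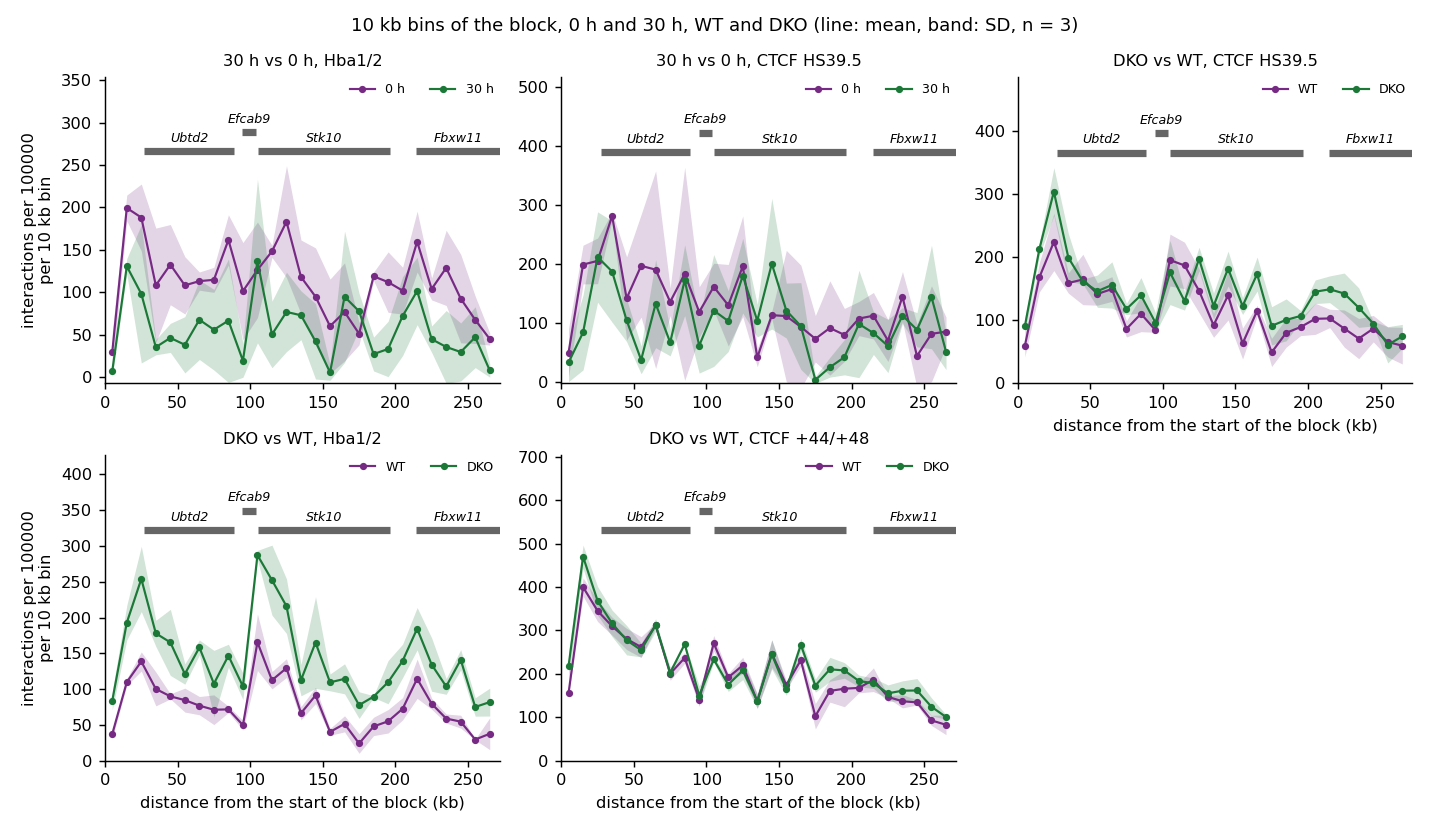
Interactions per 100000 in each 10 kb bin (vertical axis) against the distance from the start of the block (kb), for 0 h and 30 h from Hba1/2 and CTCF HS39.5 and for WT and DKO from 3 viewpoints, with means and bands of 1 SD (n = 3). From Hba1/2 the DKO line runs above the WT line in all 27 bins and both peak at the bin with the starts of Efcab9 and Stk10, at 287 and 166.

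The third question was what the block does when the enhancers R1 and R2 are gone. Seen from Hba1/2, the block took a larger share of interactions in DKO cells. Its share was 4.14%, 3.90% and 3.76% in DKO and 2.24%, 2.16% and 1.83% in WT, with means of 3.93% ± 0.191 and 2.08% ± 0.219 (SD, n = 3, log2 difference 0.93). limma called 22 of the 27 bins higher in DKO and 0 lower, where 13.4% of all bins were called. The median log2 difference was 0.92, against 0.67 over all tested bins. The mirrored window was also higher in DKO, at 9.37 ± 0.721 interactions per kb against 5.28 ± 0.320 in WT, beside 14.5 ± 0.704 and 7.64 ± 0.804 in the block. The ratio of both was 0.53 ± 0.161 in WT and 0.63 ± 0.106 in DKO, with overlapping ranges (exact permutation p = 0.4, adjusted p = 0.44).

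All 4 genes had higher values in DKO from Hba1/2. Ubtd2 had 15.3 ± 0.794 per kb in DKO and 8.59 ± 1.45 in WT, Efcab9 17.8 ± 1.67 and 9.38 ± 0.632, Stk10 15.3 ± 1.06 and 7.71 ± 0.804, and Fbxw11 11.2 ± 1.098 and 5.49 ± 0.634. None of these ranges overlapped, but genes outside the block were not compared in this way. The mirrored window and the median over all tested bins were higher in DKO too. The bin with the smallest adjusted p lay in an intron of Stk10 at 32438174 to 32448173, with 252 ± 48.9 against 113 ± 12.1 (log2 difference 1.14, SE 0.20, adjusted p = 0.000968 from limma). The neighbouring bin with the starts of Efcab9 and Stk10 was the highest of the block in both genotypes. It had 289, 280 and 293 interactions in DKO and 201, 172 and 123 in WT, so the groups were apart (log2 difference 0.82, SE 0.19, adjusted p = 0.00670 from limma). It took 7.32% ± 0.417 of the block in DKO and 7.90% ± 1.13 in WT, and these ranges overlapped. The leading fragments were both in introns of Stk10, at chr11:32439551-32441376 in DKO (27.6 ± 7.61, against 11.4 ± 6.14 in WT) and chr11:32436628-32437371 in WT (17.96 ± 9.61, against 24.8 ± 12.5 in DKO).

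From CTCF HS39.5 the shares were 3.76%, 3.97% and 3.76% in DKO and 3.22%, 3.11% and 2.93% in WT (log2 difference 0.31). The groups did not overlap, but limma called 0 of the 27 bins (3.35% of all bins called). Before adjustment 7 bins were higher and 1 lower (p under 0.05 from limma). edgeR also called 0, with 6 higher and 1 lower before adjustment. The unadjusted counts have no reference over the chromosome here either. The median log2 difference of the block was 0.41, close to the 0.36 over all tested bins. The highest bin held the start of Ubtd2 at 32348174 to 32358173, with 303 ± 37.9 in DKO and 224 ± 45.3 in WT (adjusted p = 0.288 from limma). The intergenic stretch before Ubtd2 had 20.48 ± 1.12 per kb in DKO against 13.8 ± 1.29, and Fbxw11 had 10.2 ± 1.25 against 7.46 ± 0.773. Ubtd2 and Efcab9 overlapped between genotypes. The ratio to the mirrored window was 0.50 ± 0.135 in DKO and 0.22 ± 0.0826 in WT (exact permutation p = 0.1, adjusted p = 0.137).

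From CTCF +44/+48 the genotypes differed least, with 6.16%, 5.93% and 5.77% in DKO and 5.68%, 5.58% and 5.29% in WT (log2 difference 0.11). The ranges were apart, and all 3 viewpoint groups gave p = 0.1 in the exact permutation test (adjusted p = 0.1). The median log2 difference of the block's bins was 0.09, below the 0.30 over all tested bins. limma called 1 of the 27 bins, higher in DKO, where 7.42% of all bins were called. This bin lay within Stk10 at 32498174 to 32508173, with 173 ± 15.04 in DKO and 103 ± 29.3 in WT (log2 difference 0.79, SE 0.19, adjusted p = 0.00141 from limma). Per kb, Ubtd2 was alike within its spread (27.7 ± 0.906 and 27.4 ± 0.649), as was Stk10 (20.2 ± 0.833 and 18.9 ± 1.46), and Fbxw11 was higher in DKO (14.2 ± 0.469 and 12.1 ± 0.357). The bin of the Efcab9 and Stk10 starts had 229 to 241 interactions in DKO and 255 to 290 in WT, and did not pass (log2 difference -0.21, adjusted p = 0.398 from limma). The ratio to the mirrored window was -1.44 ± 0.0268 in DKO and -1.91 ± 0.0464 in WT (exact permutation p = 0.1, adjusted p = 0.137). The mirrored window, which ends upstream of the enhancers, had 59.4 ± 0.889 per kb in DKO and 76.1 ± 0.394 in WT, beside 21.9 ± 0.716 and 20.3 ± 0.748 in the block.

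The remaining leading fragments were thinly covered. From CTCF +44/+48 they were chr11:32335491-32336838 in DKO (33.3 ± 12.9, against 18.3 ± 3.87 in WT) and chr11:32356786-32357137 in WT (29.6 ± 6.40, against 16.2 ± 1.069 in DKO). From CTCF HS39.5 they were chr11:32353731-32354548 in DKO (30.6 ± 28.2) and chr11:32441793-32443558, in an intron of Stk10, in WT (31.1 ± 5.29, against 14.6 ± 7.82 in DKO). At 0 h and 30 h the leaders rested on 14 to 47 reads. From Hba1/2 they were chr11:32490438-32490765 in Stk10 at 30 h (49.7 ± 38.6) and chr11:32544124-32544866 in Fbxw11 at 0 h (48.2 ± 26.9). From CTCF HS39.5 both were intergenic, at chr11:32353399-32353730 at 30 h (54.8 ± 34.7) and chr11:32339139-32339352 at 0 h (60.7 ± 47.7). All 22 leading fragments had reads in both groups of their comparison.

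The AMKO and WT libraries from R1/R2 have no replicates, so their intervals cover counting error only and compare these 2 libraries. In AMKO the block took 2577 of 82155 reads, or 3.14% (95% Wilson interval 3.02% to 3.26%). In WT it took 1392 of 57574, or 2.42% (2.30% to 2.55%). The log2 ratio was 0.38 (0.28 to 0.47), with 0.25 from R1 alone and 0.49 from R2 alone. The deleted 16 kb lie between these viewpoints and the block, which brings the block nearer along the chromosome in AMKO. Whether this bears on the share was not tested. Per kb the block had 11.8 in AMKO and 9.17 in WT, whereas the mirrored window upstream had 9.61 and 11.9. The bin of the Efcab9 and Stk10 starts ranked first in AMKO (220 interactions) and second in WT (168).

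After inhibition of transcription the share of the block from Hba1/2 could not be told from that of the controls at this depth. It was 1.92% (1.67% to 2.22%) in the untreated library on 186 reads, 1.94% (1.63% to 2.31%) after DMSO on 123 reads and 2.25% (2.03% to 2.51%) after DRB on 327 reads. The log2 ratio of DRB to untreated was 0.23, with an interval from -0.03 to 0.49. The ratio of DRB to DMSO was 0.21 (-0.08 to 0.51) and that of DMSO to untreated 0.02 (-0.31 to 0.34). With 1 library per treatment there was no test of the treatment.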

How the data were processed

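NG Capture-C was measured in 39 libraries or runs. The authors trimmed the reads (Trim Galore), aligned them to mm9 (Bowtie) and counted them per DpnII fragment; versions are not given in the sources used here. The deposited values are reads per 100000 reporter reads of a viewpoint over all chromosomes (an RPM-like unit). Whole reads were recovered from them. All 141 columns used gave whole numbers for 100% of values within 0.1 read, and 138 met the stricter check for edgeR, which was therefore not run from A and Ex.

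Fragments within 1 kb of a viewpoint were left out and values were scaled to 100000 interactions on chromosome 11. Runs of a replicate and the paired viewpoints (Hba1/2, R1/R2, CTCF +44/+48) were averaged. The 2 runs of the 0 h and 30 h replicates differed by less than sampling noise and count as 1 sample. Those of the libraries captured from Ex, E, A, C and Cx differed by more and were averaged as technical runs. limma (version 3.58.1, R 4.3.3) with trend was fitted to log2(value + 1) of all 10 kb bins of chromosome 11 with a mean of at least 10, without a block, with Benjamini-Hochberg adjustment and a threshold of 0.05. edgeR (version 4.0.16) was an alternative. Both were also run on simulated reads with known folds, modelled on MFL against mES from R1/R2 and DKO against WT from Hba1/2. The simulation used a fixed spread between replicates and did not cover the other comparisons, and its outcome is not reported here. Exact permutation tests (two-sided) compared the shares and mirrored ratios, with Benjamini-Hochberg adjustment over 11 comparisons. DESeq2, which the study names, was not run. Fragment coordinates were matched to an mm9 digest (187328 of 187329 matched), and genes and sequences are from the NCBIM37 (mm9) genome and its GENCODE annotation.

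Same-numbered replicates did not deviate together (r between -0.07 and 0.10 over 33 pairs). Named are all protein-coding genes of the block, per comparison the most significant called bin in either direction whose replicates moved alike or, where none passed, the bin with the highest mean, and for each group the fragment with the highest mean. The members and lists were chosen with earlier results of these data known. Per viewpoint and run, reporter reads ranged from 2287 to 188599, and 3 reads correspond to 1.95 to 258 interactions per 100000. Replicates are labelled biological. Reads carry no molecular identifiers, so intervals cover counting error only. Alternatives were the left-out distance, scaling, runs, single viewpoints, bin size and offset, pseudocount, filter, edgeR, a replicate block and leaving out each replicate.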

Additional observations from a re-analysis of the deposited data

Results flagged for a closer look

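The panel of the untreated, DMSO and DRB libraries also held a viewpoint at the start of Fbxw11, inside the block, which no comparison above uses. From it the block took 25.6% of chromosome 11 reads in the untreated library (95% Wilson interval 24.4% to 26.8%), 26.6% after DMSO (25.2% to 27.9%) and 24.9% after DRB (24.1% to 25.8%), on 1314, 1128 and 2510 reads. These 3 values were flagged because they lie outside the measurements reported. Since this viewpoint lies within the block, a large share there was fixed in advance by nearness and is no finding about the block. The intervals of the treatments overlap, and 1 library each gives no test. Per kb, the stretch between Stk10 and Fbxw11 had 397, 406 and 377 interactions in the same order, the Fbxw11 part of the block 189, 185 and 172, Stk10 54.8, 61.6 and 61.2, Efcab9 68.9, 68.1 and 55.4, and Ubtd2 26.0, 33.8 and 30.0. No group of 4 to 10 samples exists, so no sample was tested for standing apart from its group.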

How the results depend on the processing

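Every share kept its direction under each alternative that was run (83 values), with the widest ranges from C (-0.996 to -0.31) and Cx (-1.02 to -0.22), whose smallest values came from scaling within 1 Mb. From CTCF HS39.5 with the first run only, and from CTCF +44/+48 with the values as deposited, the groups overlapped. The mirrored ratio of 30 h against 0 h from CTCF HS39.5 reversed without 30 h replicate 2 (0.06) and without 0 h replicate 2 (0.082), within a range of -0.21 to 0.082. Counts of bins depended more on the setting, and the cause was not tested. With no filter, 4 bins were called from R1/R2 (36 of 9768 over the chromosome) and 2 from Ex (25 of 8663). From A 5 were called (28 of 8931), and from Hba1/2 in DKO 9 (51 of 9369). In 2 kb bins a smaller part of the block was called for the MFL and mES comparisons and for Hba1/2 in DKO. Counts are followed, in brackets, by those over the chromosome in either direction. They were 29 of 128 from R1/R2 (202 of 690), 0 of 128 from Ex (27 of 733) and 73 of 125 from E (361 of 611). From A they were 8 of 132 (65 of 807), from C 39 of 135 (160 of 863) and from Cx 49 of 135 (215 of 892). From Hba1/2 in DKO 20 of 118 were called (86 of 518), beside 2 of 134 from CTCF +44/+48 (65 of 616). The block's calls each went in 1 direction. In that direction alone the chromosome had 166 of 690 from R1/R2, 13 of 733 from Ex and 321 of 611 from E. It had 39 of 807 from A, 134 of 863 from C and 173 of 892 from Cx. From Hba1/2 in DKO it had 58 of 518, and from CTCF +44/+48 11 of 616. Set against these counts, the block's part was farthest above that of the chromosome from C and Cx. With the first run only, 10 kb bins gave 0 from Ex (5 of 833 over the chromosome), 0 from A (12 of 765) and 12 from C (54 of 1027). As deposited, Ex gave 20 (102 of 478 over the chromosome) and CTCF +44/+48 gave 2 (65 of 434). In DKO from CTCF HS39.5, shifted bins gave 2 and a pseudocount of 10 gave 1, and shifted bins and edgeR gave 2 from CTCF +44/+48. Leaving out a replicate gave 0 to 1 from Hba1/2 at 30 h, 15 to 22 from R1/R2, 1 to 10 from Ex (1 without mES replicate 3, 4 without mES replicate 2), 25 to 27 from E, 7 to 11 from A (7 without mES replicate 2), 18 to 23 from C, 20 to 23 from Cx, 13 to 23 from Hba1/2 in DKO (13 without DKO replicate 1) and 0 to 2 from CTCF +44/+48 (0 without WT replicate 3).

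With a replicate block, CTCF +44/+48 gave 2 bins, and no other count moved by over 1.5 times. In a paired sign-flip test of the shares the smallest possible p was 0.25, and each share gave it. Same-numbered replicates shared only a number, and 9 of 33 correlated best with their own.

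For single libraries, 5 kb left out gave 2.77% in WT, 3.53% in AMKO and 2.56% after DRB. Over all chromosomes, as deposited, the shares were 1.63% in WT, 1.99% in AMKO, 1.17% untreated, 1.194% after DMSO and 1.43% after DRB. R1 alone gave 2.93% and 3.49% in WT and AMKO, and R2 alone 2.06% and 2.90%. Depth limits single fragments most, at 10 to 61 block reads per viewpoint in the second run of the 30 h libraries from Hba1/2.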

Other observations

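E lies 435 bp from R2. In mES cells the 2 viewpoint groups E and R1/R2 gave nearly the same share of the block, 6.18% ± 0.155 and 6.17% ± 0.117 (SD, n = 3), from separate libraries. In MFL cells they gave 1.62% ± 0.0461 and 2.73% ± 0.197. The 2 sets of MFL libraries were captured with different panels, and this pair was chosen after its values were seen, so no test was made.

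Across the 27 bins, the MFL profile from R1/R2 had a Pearson r of 0.84 (Spearman rho 0.83) with that of the WT libraries from Hba1/2. The mES profile from R1/R2 had 0.44 (0.54) with the same WT profile. The 30 h libraries of the time comparison, also from Hba1/2, gave the reverse order. With them the MFL profile had 0.44 (0.31) and the mES profile 0.49 (0.38). With the 0 h libraries the values were 0.53 (0.55) for MFL and 0.51 (0.47) for mES. Neighbouring bins share distance and base composition, and these values are descriptions.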
